A study of Homo sapiens with 8 samples.

Results

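The genes described here code for proteins of tight junctions and desmosomes: the claudins CLDN3, CLDN4 and CLDN7, occludin (OCLN), the scaffold ZO-1 (TJP1), desmoplakin (DSP), plakoglobin (JUP), the desmosomal cadherins DSG2 and DSC2, and plakophilin 2 (PKP2). A member was any probe set, a group of short probes for 1 transcript, to which the platform annotation gave exactly 1 gene symbol from this set. Each of the 10 genes had a single probe set, so 10 of 10943 probe sets with 1 symbol and 10 of 8226 named genes are described. The rule uses no measured value, but the genes were chosen with earlier results of these data known.

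The arrays came from established human prostate cancer cell lines, PC3 and LNCaP, that expressed either activated Notch1 or only green fluorescent protein (GFP), the control. PC3 derives from a bone metastasis and grows without androgen, and LNCaP derives from a lymph node metastasis and responds to androgen. The 4 groups, called PC3 GFP and PC3 Notch1 for one line and LNCaP GFP and LNCaP Notch1 for the other, had 2 Affymetrix U95Av2 arrays each and 8 arrays in all. All groups therefore carried a construct, and no group of untouched cells was among these arrays. The study described several vectors for activated Notch1, and the sources used here do not say which was used for the arrays, how long after delivery RNA was taken or what share of cells was reached. The methods state that 2 chips were made per sample, so p-values measure only the spread between arrays, which may be technical. Levels are log2 expression values, and n = 2 arrays stand behind each group mean.

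Epithelial cells are held together by junctions of several kinds. In tight junctions, claudins and occludin cross the membrane and seal the space between neighbouring cells, and scaffolds such as ZO-1 tie them to actin. In desmosomes, desmogleins and desmocollins of neighbouring cells bind each other, and plakoglobin, plakophilins and desmoplakin link them to keratin filaments. Both kinds of junction are found in the epithelium of the prostate, and their loss is a known feature of cells that leave an epithelial state.

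Across probe sets, the 2 arrays of a group correlated with r between 0.995 and 0.998. The median log2 level was 5.95 to 6.01 on PC3 arrays and 6.28 to 6.36 on LNCaP arrays, and no source says whether both lines were normalized together. Between 36.6% and 37.6% of probe sets lay under log2 5 on PC3 arrays and 31.9% to 33.0% on LNCaP arrays. HES1, a direct Notch target, rose with activated Notch1 by 2.56 in PC3 and 2.78 in LNCaP on the log2 scale (limma, adjusted p = 4.22e-07 and 3.12e-07). Identity genes fitted the line labels: all 4 measured LNCaP genes (KLK2, KLK3, TMPRSS2 and ACP3) were higher in LNCaP GFP (40.3% of all probe sets). Of 7 PC3 genes, 5 were lower there (18.5%) with 0 higher. Of the marker lists for other cells, 0 of 4 leukocyte genes, 0 of 5 stromal and endothelial genes and 0 of 2 basal genes were called with Notch1 in either line. Over all probe sets 6.20% were called in PC3 and 17.3% in LNCaP, so 0 calls in lists this short show little. The difference between the 3′ and 5′ probe sets of GAPDH, a sign of RNA quality, was 0.02 ± 0.07 in PC3 GFP, -0.06 ± 0.03 in PC3 Notch1, 0.56 ± 0.01 in LNCaP GFP and 0.38 ± 0.03 in LNCaP Notch1 (log2, mean ± SD, n = 2). The same difference for ACTB was 0.38 ± 0.07, 0.33 ± 0.08, 0.62 ± 0.06 and 0.45 ± 0.10 in that order of groups. Both measures were higher in LNCaP and, there, lower with Notch1, though for ACTB LNCaP Notch1 lay near PC3 GFP. The part of RNA quality in the differences was not tested.

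RefSeq promoter windows of 300 bases, from 250 before to 50 after an annotated start (GRCh38.p14), were found for 9 of the 10 genes, 16 windows in all. They are shown for the 3 claudins and for desmoplakin, the members that moved most in LNCaP, and their values follow below the sequences. Capitals mark the E-box letters CAGGTG or their reverse complement CACCTG, which Snail and ZEB family repressors are known to bind, and the core letters TGGGAA or TTCCCA, which RBPJ, the DNA-binding partner of Notch, is known to bind. Both motifs were searched on both strands, and no match of one overlapped a match of the other in these windows. Each sequence reads 5′ to 3′ on the strand of the gene. CLDN3 lies at chr7:73770221-73770520 (minus strand), CLDN4 at chr7:73830746-73831045 (plus strand), the second of 2 CLDN7 windows at chr17:7262429-7262728 (minus strand) and DSP at chr6:7541421-7541720 (plus strand).
CLDN3: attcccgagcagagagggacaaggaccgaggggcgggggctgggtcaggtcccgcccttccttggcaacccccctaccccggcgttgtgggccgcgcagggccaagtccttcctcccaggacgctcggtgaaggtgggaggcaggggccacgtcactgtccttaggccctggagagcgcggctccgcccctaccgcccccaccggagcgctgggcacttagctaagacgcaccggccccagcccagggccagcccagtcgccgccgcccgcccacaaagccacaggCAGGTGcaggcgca
CLDN4: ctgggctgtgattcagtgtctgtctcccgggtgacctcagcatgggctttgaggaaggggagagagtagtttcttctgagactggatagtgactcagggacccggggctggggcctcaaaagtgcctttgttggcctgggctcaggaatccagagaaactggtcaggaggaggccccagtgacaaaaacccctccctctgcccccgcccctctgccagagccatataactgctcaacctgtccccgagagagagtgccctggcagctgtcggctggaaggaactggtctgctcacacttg
CLDN7: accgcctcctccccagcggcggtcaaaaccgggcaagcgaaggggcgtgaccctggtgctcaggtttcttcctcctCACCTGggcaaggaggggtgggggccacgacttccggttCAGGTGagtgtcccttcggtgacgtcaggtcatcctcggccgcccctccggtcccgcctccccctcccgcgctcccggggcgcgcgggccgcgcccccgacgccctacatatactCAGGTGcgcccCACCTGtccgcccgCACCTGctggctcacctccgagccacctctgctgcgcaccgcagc
DSP: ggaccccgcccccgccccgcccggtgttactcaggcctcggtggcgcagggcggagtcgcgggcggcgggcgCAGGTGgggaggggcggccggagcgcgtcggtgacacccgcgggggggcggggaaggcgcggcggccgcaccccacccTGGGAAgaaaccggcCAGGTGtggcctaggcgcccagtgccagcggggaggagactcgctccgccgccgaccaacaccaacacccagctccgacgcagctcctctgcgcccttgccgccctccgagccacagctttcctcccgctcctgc
The CLDN7 window held 5 E-box matches, at -174, -135, -20, -9 and 6 from the start. Of all 35116 RefSeq windows of this length, 20.6% held at least 1 match, 3.49% at least 2 and 0.168% at least 4. The CLDN7 window shown held the most E-box matches of all 16 member windows, so these shares do not test it. The DSP window held 2 E-box matches and 1 RBPJ core, the CLDN3 window 1 E-box match at 37, and the CLDN4 window no match to either motif. The other CLDN7 window held no E-box and 1 RBPJ core. Over all 16 member windows, 9 held an E-box and 5 an RBPJ core, which 24% of all windows held. A match describes letters only and is not evidence of binding. CLDN3 and CLDN4 are neighbours on chromosome 7, with 60225 bases between their windows.

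CLDN3, CLDN4 and CLDN7 fell with activated Notch1 in LNCaP, while CLDN8, a claudin outside the members, rose there. CLDN3 and CLDN4 fell in both lines, by between 1.58-fold and 2.57-fold, and CLDN7 fell in LNCaP, where it was expressed, by 2.09-fold. CLDN3, CLDN4 and CLDN7 are sealing claudins of simple epithelia, and CLDN3 and CLDN4 are also known as receptors for a clostridial enterotoxin. In bulk RNA, fewer cells that express a gene and less RNA per cell cannot be told apart, and this holds for each change below.

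**Figure D1:**
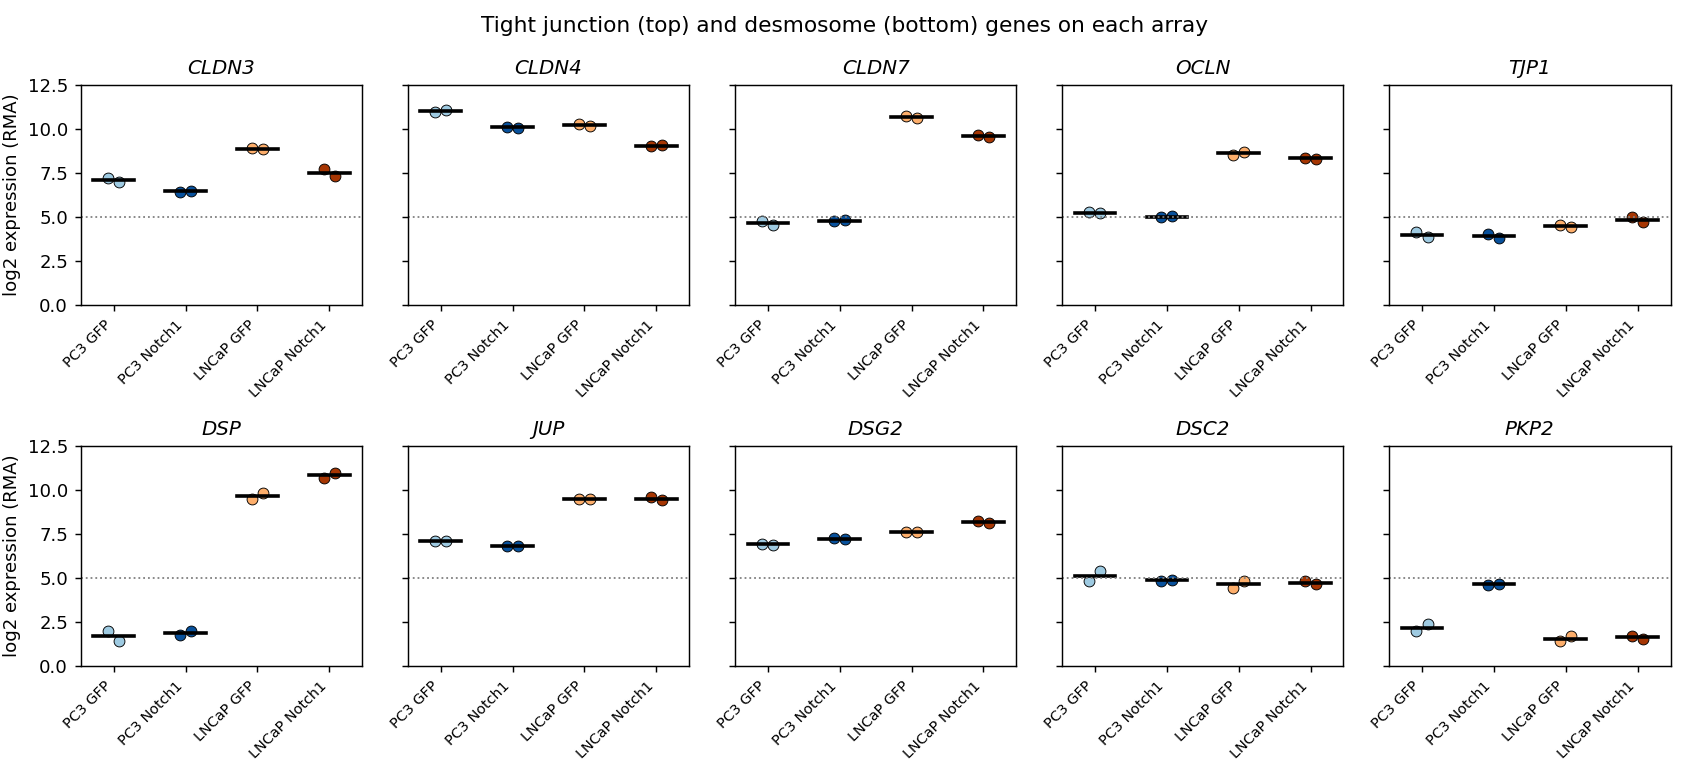
Log2 expression (RMA, y axis) of each tight junction gene (top) and desmosome gene (bottom) on each of the 8 arrays, by group (x axis). Points are arrays, bars are group means of 2 arrays and the dotted line is log2 5. CLDN3 and CLDN4 sit lower in the Notch1 arrays of both lines, and CLDN7 and DSP lie under log2 5 on all PC3 arrays. Levels of different genes come from different probes and are not set against each other.

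CLDN3 measured 7.23 and 7.00 in PC3 GFP and 6.45 and 6.46 in PC3 Notch1. In LNCaP it measured 8.92 and 8.85 with GFP and 7.70 and 7.34 with Notch1. Both Notch1 arrays thus lay below both GFP arrays in each line. The lower LNCaP Notch1 array, at 7.34, was only just above the highest PC3 array, at 7.23. LNCaP arrays had the higher medians and joint normalization is unstated, so that order between lines is not secure. The change was -0.66 in PC3 (SE 0.14, limma adjusted p = 0.0228) and -1.36 in LNCaP (SE 0.14, adjusted p = 8.96e-05). The fall was larger in LNCaP by 0.70 in size, a difference of -0.70 with a 95% interval of -1.14 to -0.25 (adjusted p = 0.0441). The PC3 call was lost when values under log2 5 were raised to log2 5 across the table (adjusted p = 0.120 at the same change), and without PC3 GFP replicate 1, PC3 Notch1 replicate 1 or PC3 Notch1 replicate 2 (-0.55 with adjusted p = 0.132, -0.66 with 0.140 and -0.67 with 0.132). The difference between lines was lost in 7 of 14 alternatives, with values of -0.73 to -0.52 and adjusted p of 0.0730 to 0.139. These were the floor at log2 5 and leaving out PC3 GFP replicate 2, either PC3 Notch1 array, either LNCaP GFP array or LNCaP Notch1 replicate 2.

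CLDN4 measured 10.98 and 11.06 in PC3 GFP and 10.11 and 10.06 in PC3 Notch1. Its LNCaP levels were 10.28 and 10.16 with GFP and 9.01 and 9.11 with Notch1. CLDN4 fell without overlap between arrays in both lines, by 0.94 on the log2 scale in PC3 (SE 0.11, 1.91-fold lower, limma adjusted p = 0.000773) and by 1.17 in LNCaP (SE 0.11, 2.24-fold lower, adjusted p = 5.80e-05). Both calls held in all 15 alternatives. The LNCaP change minus the PC3 change was -0.23, with an interval of -0.59 to 0.13 (adjusted p = 0.347), so a larger fall in either line was not detectable here.

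CLDN7 measured 4.77 and 4.56 in PC3 GFP and 4.76 and 4.81 in PC3 Notch1, all under log2 5. LNCaP GFP arrays read 10.71 and 10.65 and LNCaP Notch1 arrays 9.68 and 9.56. The gene was thus at a low level in PC3 under both conditions, and its groups did not overlap in LNCaP. CLDN7 fell by 1.06 in LNCaP (log2, SE 0.12, limma adjusted p = 0.000172), and the PC3 difference was 0.13 (95% interval -0.14 to 0.39, adjusted p = 0.531). The difference between the lines, -1.19 (interval -1.57 to -0.81), passed the test (adjusted p = 0.00151) in all 14 alternatives. The PC3 effect in it was read at levels under log2 5.

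Occludin and ZO-1 gave no called change in either line. OCLN, a membrane protein of the tight junction strand, measured 5.26 and 5.23 in PC3 GFP, 5.00 and 5.04 in PC3 Notch1, 8.55 and 8.68 in LNCaP GFP, and 8.38 and 8.27 in LNCaP Notch1. The Notch1 arrays were the lower ones in both lines, by small amounts. The differences were -0.22 (95% interval -0.47 to 0.03) in PC3 and -0.29 (interval -0.54 to -0.03) in LNCaP, with limma adjusted p = 0.248 and 0.122. The difference between these effects was -0.06 (interval -0.42 to 0.29, adjusted p = 0.800).

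TJP1, which codes for the scaffold that ties claudins and occludin to actin, lay under log2 5 on all 8 arrays. It read 4.15 and 3.86 in PC3 GFP, 4.07 and 3.83 in PC3 Notch1, 4.55 and 4.44 in LNCaP GFP, and 4.99 and 4.70 in LNCaP Notch1. PC3 groups overlapped and LNCaP groups did not. The difference with Notch1 was -0.06 in PC3 (95% interval -0.39 to 0.28, limma adjusted p = 0.844) and 0.35 in LNCaP (interval 0.02 to 0.69, adjusted p = 0.153). With the replicate number as a block the LNCaP difference passed the test (adjusted p = 0.0344). The lines' effects differed by 0.41 (interval -0.07 to 0.88, adjusted p = 0.215).

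The desmosome members called with Notch1 rose. Desmoplakin and desmoglein 2 rose with activated Notch1 in LNCaP, by 2.26-fold and 1.52-fold, and PKP2 rose in PC3 from a very low level. Plakoglobin and DSC2 gave no called change in either line, and 0 desmosome members were called lower. DSP, the plaque protein that anchors keratin filaments, measured 9.50 and 9.80 in LNCaP GFP and 10.68 and 10.96 in LNCaP Notch1. In PC3 it read 1.96 and 1.44 with GFP and 1.77 and 2.00 with Notch1, near the bottom of the scale. LNCaP arrays did not overlap and PC3 arrays did. DSP rose by 1.18 in LNCaP (log2, SE 0.19, limma adjusted p = 0.00150), a call kept in all 15 alternatives, and differed by 0.19 in PC3 (95% interval -0.23 to 0.60, adjusted p = 0.551). The lines' effects differed by 0.99 (interval 0.40 to 1.58, adjusted p = 0.0331). That difference missed the threshold without PC3 GFP replicate 1 (0.73, adjusted p = 0.0782), either PC3 Notch1 array (0.87 with 0.125 and 1.11 with 0.0620), LNCaP GFP replicate 1 (0.84 with 0.0785) or either LNCaP Notch1 array (1.13 with 0.0558 and 0.85 with 0.126).

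JUP, which codes for plakoglobin, a relative of beta-catenin in both desmosomes and adherens junctions, is read by a probe set of the type that can match several transcripts. It measured 7.11 and 7.09 in PC3 GFP, 6.78 and 6.82 in PC3 Notch1, 9.50 and 9.49 in LNCaP GFP, and 9.60 and 9.40 in LNCaP Notch1. PC3 groups did not overlap, and LNCaP Notch1 arrays lay on either side of the GFP arrays. The difference was -0.30 in PC3 (95% interval -0.55 to -0.04) and 0.0037 in LNCaP (interval -0.25 to 0.26), with limma adjusted p = 0.152 and 0.989. The lines' effects differed by 0.30 (interval -0.06 to 0.66, adjusted p = 0.231).

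DSG2, the desmoglein of simple epithelia, measured 6.90 and 6.88 in PC3 GFP and 7.28 and 7.18 in PC3 Notch1. LNCaP levels were 7.60 and 7.58 with GFP and 8.25 and 8.14 with Notch1. Notch1 arrays were the higher ones in both lines. DSG2 rose by 0.61 in LNCaP (log2, SE 0.11, limma adjusted p = 0.00362) in all 15 alternatives, and the PC3 difference of 0.34 (95% interval 0.09 to 0.59) did not pass (adjusted p = 0.103). The effects of the 2 lines differed by 0.27 (interval -0.08 to 0.62, adjusted p = 0.262), so a difference in response between lines was not shown. DSC2, the desmocollin partner, lay under log2 5 on 7 of 8 arrays. It read 4.81 and 5.41 in PC3 GFP, 4.82 and 4.89 in PC3 Notch1, 4.45 and 4.83 in LNCaP GFP, and 4.80 and 4.66 in LNCaP Notch1, with overlap in both lines. Its differences were -0.25 in PC3 (interval -0.68 to 0.17, limma adjusted p = 0.421) and 0.09 in LNCaP (interval -0.34 to 0.52, adjusted p = 0.828), and the lines' effects differed by 0.35 (interval -0.26 to 0.95, adjusted p = 0.397).

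PKP2, an armadillo protein of the desmosomal plaque, measured 1.98 and 2.38 in PC3 GFP and 4.58 and 4.67 in PC3 Notch1. LNCaP arrays read 1.39 and 1.70 with GFP and 1.70 and 1.54 with Notch1. The PC3 Notch1 arrays stood apart from the other 6, yet all 8 lay under log2 5. PKP2 rose by 2.45 in PC3 (log2, SE 0.16, limma adjusted p = 6.62e-06) and differed by 0.07 in LNCaP (95% interval -0.28 to 0.43, adjusted p = 0.831). The LNCaP effect minus the PC3 effect was -2.38 (interval -2.88 to -1.88, adjusted p = 0.00011). With values under log2 5 raised to log2 5, both the PC3 rise and the difference between lines were 0, so both rest on the lowest range of the scale.

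**Figure D2:**
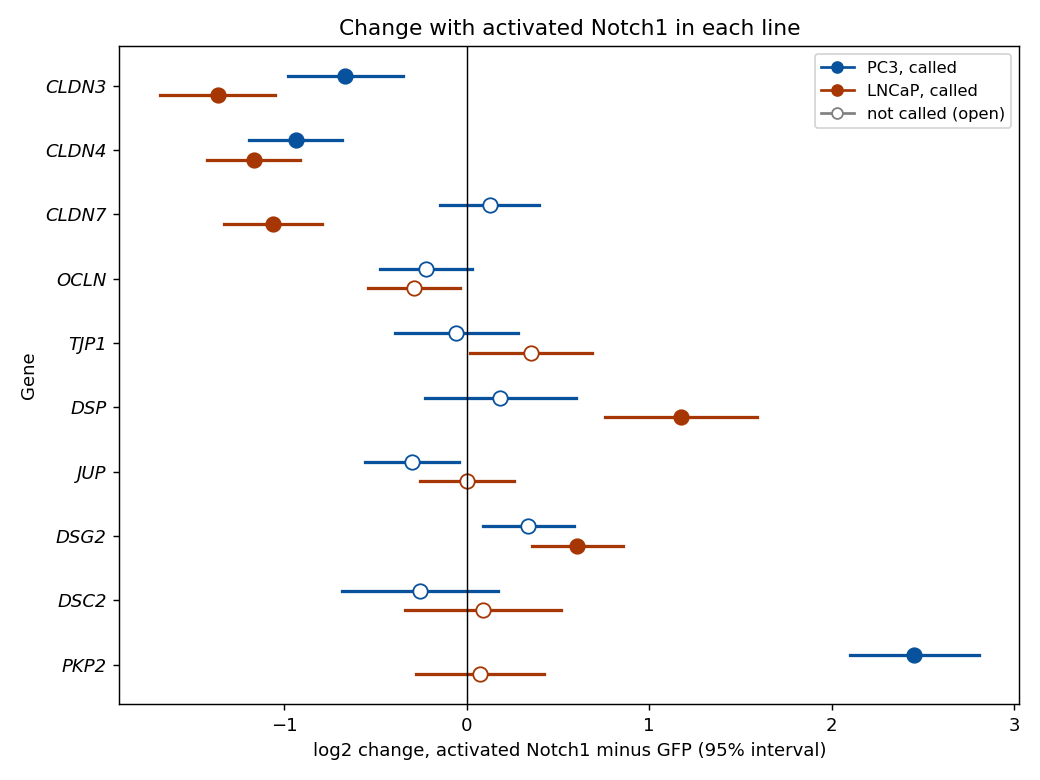
Log2 change with activated Notch1 over GFP (x axis) for each gene (y axis) in PC3 (blue) and LNCaP (orange-brown). Points are limma estimates from 2 arrays a group, bars are 95% intervals, and filled points passed adjusted p under 0.05. The claudins lie left of 0, apart from CLDN7 in PC3, while DSP and DSG2 in LNCaP and PKP2 in PC3 lie right of it.

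The members were chosen with earlier results of these data known. The counts here and between control cells thus describe the members and do not test them as a set. In counts, 3 of 10 members were called in PC3, where 6.20% of all 12558 probe sets were called. CLDN3 and CLDN4 were the 2 lower ones (2.01% of all probe sets) and PKP2 the 1 higher one (4.19%). In LNCaP, 5 of 10 were called against 17.3% of all probe sets, 3 lower (9.32%) and 2 higher (8.01%). CLDN3 and CLDN4 were called lower in both lines, as were 0.342% of all probe sets, and 0 members were called higher in both (1.03%) or in opposite directions (0.621%). A change of at least 2-fold was called for 1 member in PC3 (1.50%) and 4 in LNCaP (4.16%). Effects differed between the lines for 4 members, CLDN3, CLDN7, PKP2 and DSP, where 14.2% of all probe sets were called. DSP was the 1 with the higher value in LNCaP (6.49% of all probe sets) and the other 3 had the lower value there (7.67%), with 2 past 2-fold (6.18%). The groups did not overlap for 6 of 10 members in PC3 and 7 of 10 in LNCaP, close to the 56.0% and 57.0% of all probe sets, so non-overlap alone sets no member apart. The median change of the 5 tight junction members was -0.22 in PC3 and -1.06 in LNCaP, and that of the 5 desmosome members 0.19 and 0.09, beside medians over all probe sets of -0.08 and 0.04.

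The LNCaP identity genes, most of them known androgen targets, moved in LNCaP in the direction of CLDN3, CLDN4 and CLDN7. All 4 measured ones fell with Notch1 there, with a median change of -1.16, and 0 of 4 were called in PC3. Their summed log2 level was 35.8 to 35.9 in LNCaP GFP, 30.7 to 31.1 in LNCaP Notch1, 19.4 to 20.4 in PC3 GFP and 18.8 to 18.9 in PC3 Notch1. The PC3 identity genes moved in PC3, where 4 of 7 rose with Notch1 and their summed level was 61.5 to 61.9 with GFP and 64.7 to 65.0 with Notch1, and 0 of 7 were called in LNCaP. The luminal keratin KRT18 also fell in LNCaP, by 0.65 (limma adjusted p = 0.0104), and KRT8 was not called. Of all probe sets, 4.19% rose in PC3 and 9.32% fell in LNCaP. The part of the identity and keratin shifts in the changes of the junction genes was not tested.

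The control cells of the lines differed in most of these genes, and most were higher in LNCaP. Between GFP arrays, 9 of 10 members were called, where 58.8% of all probe sets were called, 7 higher in LNCaP (40.3%) and 2 lower (18.5%), and 5 of them differed by at least 2-fold (25.2%). Arrays did not overlap for these 9 members, nor for 78.4% of all probe sets. The median difference of the members was 1.23, beside 0.22 over all probe sets.

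**Figure D3:**
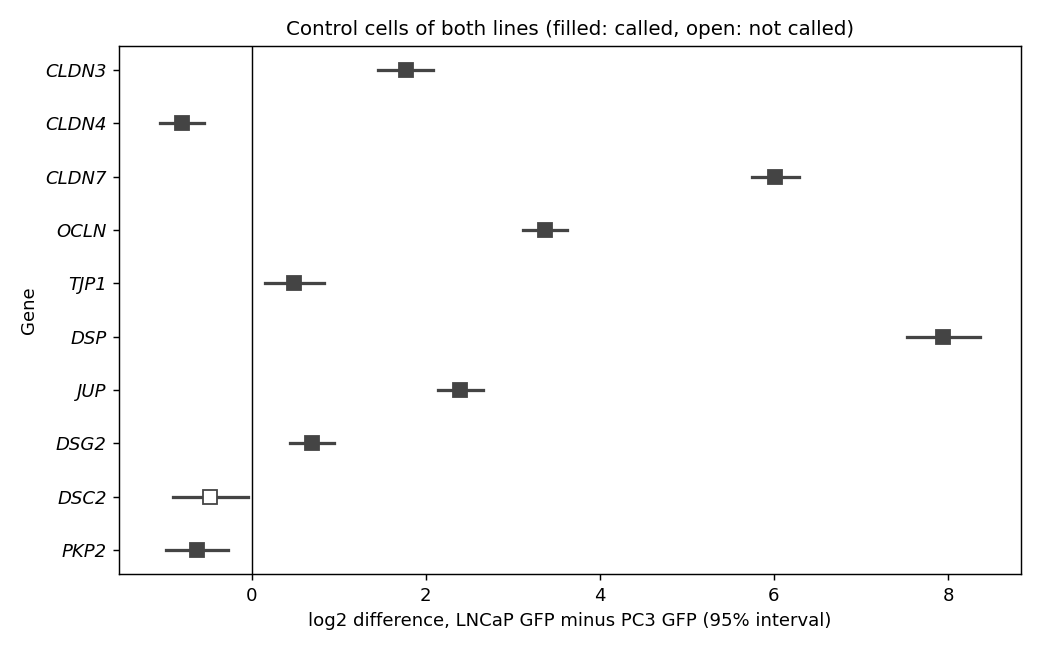
Log2 difference between control cells, LNCaP GFP minus PC3 GFP (x axis), for each gene (y axis). Squares are limma estimates from 2 arrays a group, bars are 95% intervals, filled squares passed adjusted p under 0.05. DSP and CLDN7 lie farthest right, at 7.95 and 6.02, and CLDN4 is lower in LNCaP, at -0.80.

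DSP and CLDN7, whose PC3 arrays all lay under log2 5, showed the widest gaps, 7.95 and 6.02 (limma adjusted p = 1.12e-10 and 5.13e-11). With a floor at log2 5 these gaps were 4.65 and 5.68. OCLN was 10.3-fold higher in LNCaP GFP (log2 difference 3.37, SE 0.11, adjusted p = 1.33e-09), JUP 5.26-fold (2.40, SE 0.12, adjusted p = 2.33e-08) and CLDN3 3.41-fold (1.77, SE 0.14, adjusted p = 1.33e-06). DSG2 was 1.62-fold higher (0.69, SE 0.11, adjusted p = 0.000299). CLDN4 ran the other way and was 1.74-fold lower in LNCaP GFP (-0.80, SE 0.11, adjusted p = 0.000125). LNCaP GFP arrays thus read higher for these 6 genes and lower for CLDN4. The other junction lists, with 1 probe set a gene, did not all lean the same way. Of other tight junction genes, 12 were higher and 2 lower in LNCaP GFP of 20 measured, of other desmosome genes 2 higher and 3 lower of 10, and of adherens junction genes 5 higher and 5 lower of 12. Their median differences were 0.56, -0.03 and -0.14, beside 0.22 over all probe sets. Of all probe sets, 40.3% were called higher and 18.5% lower in LNCaP GFP.

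The members at the bottom of the scale gave line differences that turned on the processing. TJP1 was 0.49 higher in LNCaP GFP (limma adjusted p = 0.0167), and the call was lost with each array centred on its median (0.21, adjusted p = 0.250), with quantile normalization (0.14, adjusted p = 0.427), with the floor (0), and without PC3 GFP replicate 2 (0.34, adjusted p = 0.112) or LNCaP GFP replicate 1 (0.44, adjusted p = 0.0818). PKP2 was 0.63 lower on the log2 scale (difference -0.63, adjusted p = 0.0057), lost with the floor and without LNCaP GFP replicate 1 (-0.47, adjusted p = 0.0538). DSC2 differed by -0.47 (95% interval -0.90 to -0.05, adjusted p = 0.0551) and was called lower with median centring (-0.75, adjusted p = 0.00711), quantile normalization (-0.80, adjusted p = 0.00714), the replicate block (adjusted p = 0.0298), and without PC3 GFP replicate 1 (-0.78, adjusted p = 0.00271) or LNCaP GFP replicate 2 (-0.66, adjusted p = 0.0241). Median centring moved the median line difference of all probe sets from 0.22 to -0.06 and quantile normalization to -0.04. The split of calls over all probe sets moved with it, from 5067 higher and 2319 lower in LNCaP GFP to 3323 and 3852 with median centring and 3471 and 3599 with quantile normalization. The other 8 members kept their direction and call under both. DSG2 shrank to 0.41 and 0.47 with these settings, while PKP2 widened to -0.91 and -0.97.

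Of 41 other tight junction genes, 20 were measured. In PC3, 1 rose (4.19% of all probe sets) and 0 fell (2.01%), and 19 were not called. In LNCaP, 2 rose (8.01%) and 0 fell (9.32%), and 18 were not called. These small counts do not set the list apart from all probe sets. The medians were -0.12 and 0.02, beside -0.08 and 0.04 for all probe sets. CLDN8, a claudin of tight distal epithelia, rose in LNCaP, against the direction of CLDN3, CLDN4 and CLDN7. The first of its 2 probe sets measured 6.56 and 6.86 in LNCaP GFP and 8.45 and 8.31 in LNCaP Notch1, a change of 1.67 (limma adjusted p = 2.44e-05), and the other probe set gave 1.79 (adjusted p = 1.31e-05). PC3 arrays read 3.49 to 3.89 there, with a difference of -0.19 (95% interval -0.51 to 0.14, adjusted p = 0.437), and the lines' effects differed by 1.86 (adjusted p = 0.000276). CXADR, a virus receptor at tight junctions, rose in LNCaP by 0.70 (adjusted p = 0.00566), a call lost without LNCaP Notch1 replicate 1 (0.56, adjusted p = 0.0598). YBX3, a ZO-1-associated regulator, rose in PC3 by 0.83 (adjusted p = 0.00407), lost without PC3 Notch1 replicate 2 (0.79, adjusted p = 0.0532).

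**Figure D4:**
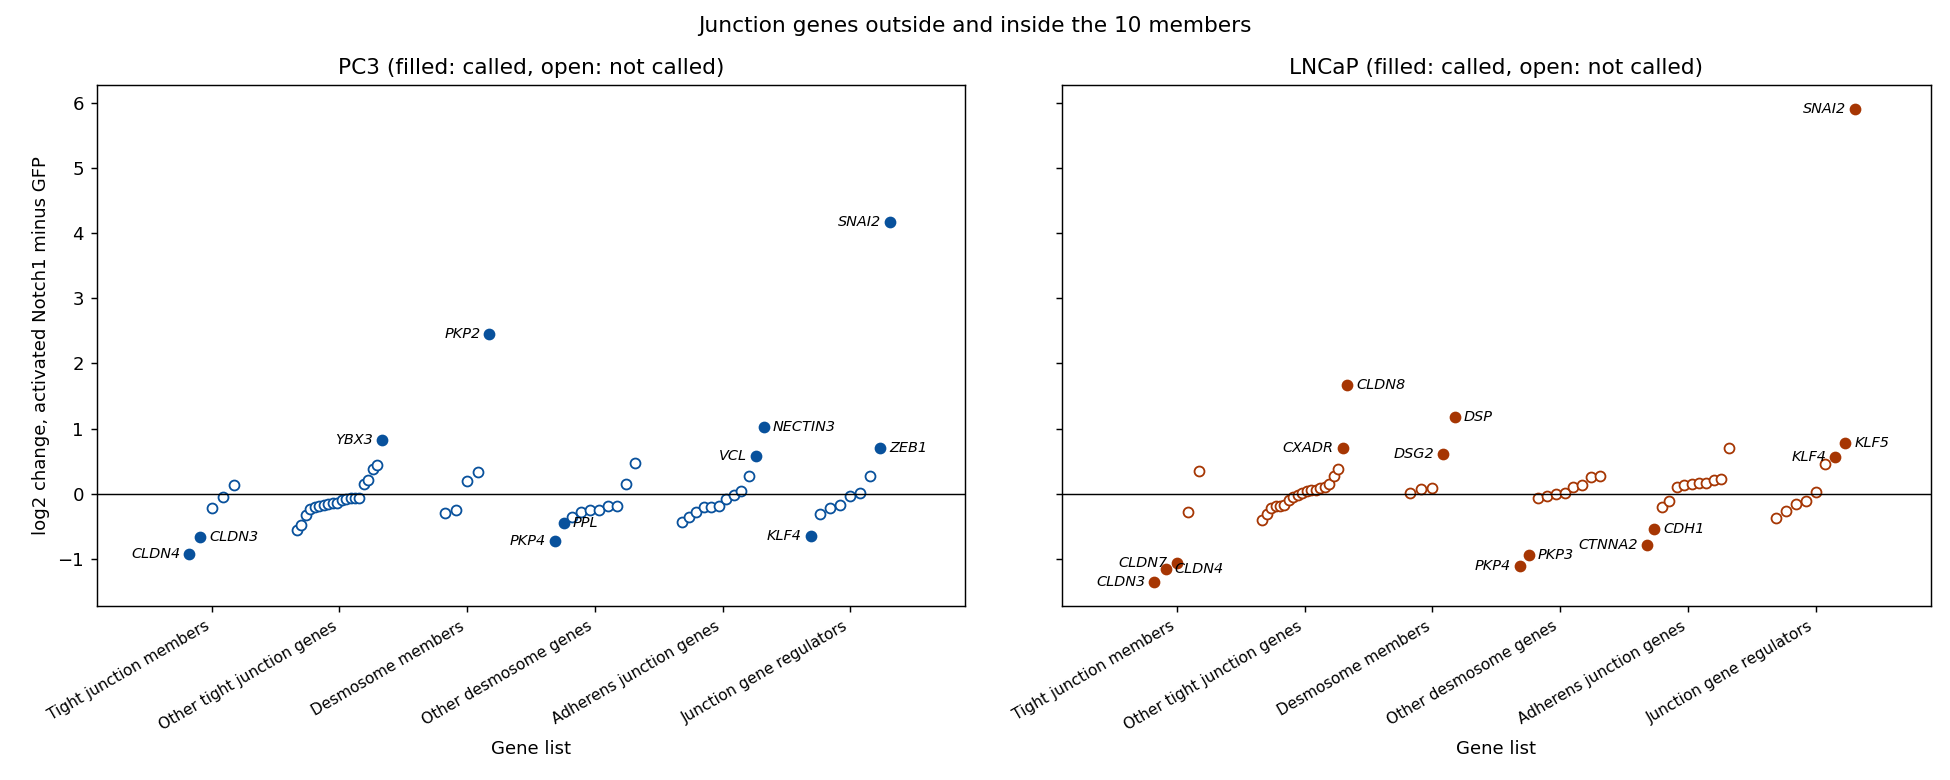
Log2 change with activated Notch1 over GFP (y axis) in PC3 (left) and LNCaP (right) for each gene of 6 lists (x axis), 1 point a gene by its brightest probe set. Filled points passed adjusted p under 0.05 over all probe sets. CLDN3, CLDN4 and CLDN7 lie lowest among tight junction genes in LNCaP while CLDN8 lies highest at 1.67, and SNAI2 lies highest of all in both lines.

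Of 12 other desmosome genes, 10 were measured. Counted by the brightest probe set of each gene, 2 fell, 0 rose and 8 were not called in each line, with medians of -0.25 in PC3 and 0.0026 in LNCaP. Of all probe sets, 2.01% fell and 4.19% rose in PC3, and 9.32% fell and 8.01% rose in LNCaP. PKP3, a plakophilin of simple and stratified epithelia, measured 9.97 and 9.74 in LNCaP GFP and 9.01 and 8.80 in LNCaP Notch1, and fell by 0.94 (limma adjusted p = 0.00117). Its PC3 difference was -0.25 (95% interval -0.57 to 0.07), and the lines' effects differed by -0.69 (adjusted p = 0.0482). PKP3 fell in LNCaP while its relative PKP2 rose in PC3. PKP1, a plakophilin best known from stratified epithelia, rose in PC3 at the dimmer of its 2 probe sets, from 6.88 and 6.83 with GFP to 8.05 and 7.72 with Notch1. That rise of 1.03 (SE 0.14, limma adjusted p = 0.00124) was called in all 15 alternatives, and the brighter probe set, which stands for PKP1 in the count, gave 0.47 (adjusted p = 0.0672). In LNCaP the probe sets gave 0.09 and 0.10 (adjusted p = 0.731 and 0.710), and the lines' effects differed at the dimmer one by -0.94 (adjusted p = 0.00919). PKP4, a related armadillo protein, fell at the brighter of its 2 probe sets by 0.73 in PC3 (adjusted p = 0.00895) and 1.11 in LNCaP (adjusted p = 0.000201), while its other probe set gave -0.31 and -0.08 (adjusted p = 0.150 and 0.755). The PC3 call of PKP4 was lost with the floor, at the same change, and without PC3 Notch1 replicate 1 (-0.63). PPL, periplakin, fell by 0.45 in PC3 (adjusted p = 0.0407), a call lost in 11 of 15 alternatives, leaving out any 1 array included, with adjusted p up to 0.189.

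Adherens junction genes, here classical cadherins, catenins, nectins, AFDN and VCL, were measured for 12 of 13. In PC3, 2 rose (4.19% of all probe sets) and 0 fell (2.01%). In LNCaP, 0 rose (8.01%) and 2 fell (9.32%). The medians were -0.14 and 0.14. CDH1, E-cadherin, measured 10.11 and 10.30 in LNCaP GFP and 9.66 and 9.65 in LNCaP Notch1 at the brighter of its 2 probe sets, a fall of 0.55 (limma adjusted p = 0.0112), and was lost as a call without LNCaP GFP replicate 2 (-0.46, adjusted p = 0.106) or either LNCaP Notch1 array (adjusted p = 0.0602 and 0.0633). Its other probe set gave -0.19 (adjusted p = 0.574). CTNNA2, an alpha-catenin, fell in LNCaP by 0.79 (adjusted p = 0.00603) from 4.96 and 5.27 with GFP to 4.29 and 4.37 with Notch1, and gave -0.14 (adjusted p = 0.520) with the floor. That call was also lost without LNCaP GFP replicate 2 (-0.63, adjusted p = 0.0524) or LNCaP Notch1 replicate 1 (-0.75, adjusted p = 0.0545). A second CTNNA2 probe set fell by 0.53 (adjusted p = 0.0183) between 2.82 and 2.86 with GFP and 2.25 and 2.39 with Notch1, far below log2 5. NECTIN3, an adhesion molecule, rose in PC3 by 1.03 (adjusted p = 0.00108), and by 0.54 (adjusted p = 0.0492) with the floor. VCL, vinculin, rose in PC3 by 0.58 (adjusted p = 0.0268), a call lost in 6 of 15 alternatives, among them leaving out PC3 GFP replicate 1 (0.43, adjusted p = 0.163) or either PC3 Notch1 array (adjusted p = 0.169 and 0.131).

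Among 14 regulators of junction genes, 9 were measured, again counted by the brightest probe set. In PC3, 2 rose (4.19% of all probe sets), 1 fell (2.01%) and 6 were not called. In LNCaP, 3 rose (8.01%), 0 fell (9.32%) and 6 were not called. SNAI2 (Slug), a known repressor of epithelial junction genes, rose most. It read 1.18 and 2.30 in PC3 GFP, 5.95 and 5.88 in PC3 Notch1, 1.45 and 0.98 in LNCaP GFP, and 7.25 and 7.02 in LNCaP Notch1. The change was 4.17 in PC3 (limma adjusted p = 1.17e-05) and 5.92 in LNCaP (adjusted p = 8.59e-07), from levels far below log2 5, and 0.91 and 2.13 with the floor. The lines' effects differed by 1.75 (adjusted p = 0.0192). ZEB1, another such repressor, rose by 0.70 in PC3 (adjusted p = 0.0302), lost in 7 of 14 alternatives, with 0.05 (adjusted p = 0.598) under the floor, 0.45 (adjusted p = 0.163) without PC3 GFP replicate 1 and adjusted p of 0.0629 to 0.183 without any Notch1 array. KLF5, an epithelial transcription factor, rose by 0.77 in LNCaP (adjusted p = 0.00147) in all 15 alternatives. KLF4, its relative, fell by 0.65 in PC3 (adjusted p = 0.0179) and rose by 0.56 in LNCaP (adjusted p = 0.0144), each lost in 4 of 15 alternatives. The fall was lost with the floor and without PC3 GFP replicate 1 or either PC3 Notch1 array (adjusted p up to 0.153), and the rise with the floor and without either LNCaP GFP array or LNCaP Notch1 replicate 1 (adjusted p up to 0.118). With the floor both KLF4 changes kept their size, as every KLF4 array lay above log2 5. The KLF4 difference between lines was 1.21 (adjusted p = 0.00215). TCF3, an E-box binding factor counted as not called by the brightest of its 3 probe sets (-0.27, adjusted p = 0.197), fell in LNCaP at another by 0.49 (adjusted p = 0.0492) and gave 0.46 (adjusted p = 0.105) at the third. That call was lost in 7 of 15 alternatives, with the floor at the same change and without any LNCaP array or either PC3 Notch1 array. SNAI2 rose where CLDN3 and CLDN4 fell, and also in LNCaP, where DSP, DSG2 and CLDN8 rose. In PC3, where SNAI2 rose too, CLDN7 was not called but lay under log2 5 on all arrays, where a fall would be hard to see. OCLN was not called in either line, with its Notch1 arrays the lower ones in both, and read only 5.00 to 5.26 in PC3. Whether SNAI2 acts on any of these genes was not tested.

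The genes whose pattern was most like those of the leading members were found by Pearson correlation over the 8 arrays, a description in which the 4 groups set most of the spread. PKP2 had the largest called change in PC3, but lay under log2 5 on all 8 arrays, and with the floor its change was 0 and CLDN4 the only member called in PC3. The ranking and the likeness thus hold only for values at the bottom of the scale. PKP2 was most like CXCL6, a chemokine (r = 0.993), SERPINB7, a serine protease inhibitor (r = 0.990), and DYNC1I1, a dynein subunit (r = 0.989). Their own changes in PC3 were 4.56, 2.40 and 1.88. CLDN3, the member with the largest called change in LNCaP, was most like CSRP1, a LIM domain protein (r = 0.994), PSEN2, a presenilin of the gamma-secretase complex (r = 0.994), and MAN2A2, a Golgi mannosidase (r = 0.992). Their own changes were -0.28, -0.35 and -0.46 in PC3 and -0.64, -0.84 and -1.45 in LNCaP.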

How the data were processed

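Total RNA was labelled and hybridised to 8 Affymetrix U95Av2 arrays. Using R, the authors turned raw array files into 1 value per probe set with RMA, a method that removes background, makes the spread of values alike between arrays and summarises the probes of each set. Versions were not stated in these sources. The values the authors deposited are on the log2 scale and were analysed as they stood. Arrays have no read depth, so precision rests on the spread between the 2 arrays of each group. That spread was shared over all groups, and limma drew it toward the spread of the other probe sets.

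Of 12625 probe sets, 67 Affymetrix controls were left out and 12558 tested: 10943 had 1 symbol, 545 several and 1070 none. Groups came from the sample labels. A model with 1 mean per group was fitted to all arrays with limma 3.58.1 in R 4.3.3 (4 residual and 6.37 prior degrees of freedom), tests were two-sided, and Benjamini-Hochberg adjustment ran over all 12558 probe sets with calls at an adjusted p under 0.05. The script was tested on simulated data. Contrasts were Notch1 minus GFP in each line, the difference of these effects, and LNCaP GFP minus PC3 GFP, so the last 2 share arrays with the first 2. Lists took the probe set with the highest mean for each gene. Members, lists and tests were chosen with earlier results of these data known.

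The rule named every member, HES1, SNAI2, CDH1, up to 5 called genes of each list by size of change, and the 3 genes most correlated with the leading member of each line. Identity and keratin genes came from the marker lists. PKP1 and TCF3 were named after their values were seen, as called only at a probe set other than the brightest. Replicate numbers recur in all groups, and for all 6 pairs of groups the deviations of same-numbered arrays from their group means had r from 0.124 to 0.545. Same-numbered arrays thus deviated alike, though what the numbers mark is unstated. The main fit left this pairing out, so its SEs, intervals and p-values ignore it. The replicate number as a block is an alternative. The other alternatives were median centring, quantile normalization, a floor at log2 5, dropping probe sets under the 25th percentile of mean level, eBayes with trend, fitting only the 2 groups compared, and leaving out each array. Promoter windows came from RefSeq (GRCh38.p14).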

Additional observations from a re-analysis of the deposited data

Results flagged for a closer look

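The effect of activated Notch1 differed between LNCaP and PC3 for 4 of the 10 genes by limma's test of the difference itself (LNCaP change minus PC3 change, log2, adjusted over all probe sets). The difference was -2.38 for PKP2, where all 8 arrays lay under log2 5. It was -1.19 for CLDN7 and 0.99 for DSP, both of which lay under log2 5 on all PC3 arrays. For CLDN3, which was above log2 5 on every array and fell in both lines, it was -0.70. The DSP call was lost in 6 of 14 alternatives and the CLDN3 call in 7 of 14, while CLDN7 kept its call in all 14. With the floor at log2 5 the PKP2 difference was 0. No explanation was tested.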

How the results depend on the processing

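Member calls numbered 3 in PC3, 5 in LNCaP, 4 for the difference between effects and 9 between control cells. CLDN4 in both lines and CLDN3, CLDN7, DSP and DSG2 in LNCaP kept their calls in all 15 alternatives. Raising values under log2 5 to log2 5 left 1 call in PC3, CLDN4, and 2 for the difference between effects. Leaving out each array in turn gave 2 to 3 calls in PC3, 5 in LNCaP each time, 2 to 4 for the difference between effects and 7 to 10 between control cells, in fits where a lone array was taken to vary like the other groups. The difference between effects fell to 2 calls without either PC3 Notch1 array, LNCaP GFP replicate 1 or LNCaP Notch1 replicate 2. Dropping probe sets of low level left PKP2 untested. With the replicate number as a block, to reflect the pairing, the counts were 3, 6, 4 and 10. It added TJP1 in LNCaP and DSC2 between control cells and changed no other member call. Over all probe sets the block raised calls from 779 to 1507 in PC3 and from 2176 to 2871 in LNCaP.

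Directions turned only where no call was made in either setting. Median centring gave -0.057 for JUP in LNCaP, and quantile normalization 0.032 for TJP1 in PC3. Leaving out each array in turn gave -0.20 to 0.092 for TJP1, -0.072 to 0.44 for DSP and -0.56 to 0.048 for DSC2 in PC3, and -0.095 to 0.10 for JUP, -0.081 to 0.23 for PKP2 and -0.098 to 0.28 for DSC2 in LNCaP. Calls between effects over all probe sets split into 815 higher and 963 lower in LNCaP, and 549 and 1255 with median centring. With 2 arrays a group and members under log2 5, small changes and changes at the bottom of the scale are the least secure, and the causes of the shifts were not tested.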
